A study of Mus musculus with 369 samples.

Results

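RNA-rich and RNA-poor microglia were compared within each of 4 plates of single cells. RNA content was the sum of a cell's gene counts divided by the sum of its counts of added spike-in RNA (ERCC), so both classes were chosen by measured values. The top tertile of each plate (26, 30, 30 and 25 cells, 111 in all) was called RNA-rich and the bottom tertile (111 cells) RNA-poor, out of 78, 90, 90 and 76 cells per plate that passed the 3 quality criteria of the labels (of 90, 93, 93 and 93 sequenced). The other 112 passing cells are called middle cells. RNA content itself, and any level expressed per spike-in count, is therefore a description without a test. The share of a gene within the gene counts of its class was not used in the choice and could be tested.

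The cells were microglia of male mice on a C57BL6J background at postnatal day 7, sorted 1 cell to a well and profiled with Smart-seq2, a full-length method that counts amplified reads without molecular identifiers. The plates held wild-type cells of the gate CD45lowCD11+ (78 passing cells, called wild-type unselected here), wild-type cells of the gate CD45lowCD11+Gpnmb+Clec7a+ (90 cells, wild-type gated), TREM2_KO cells of the first gate (90 cells, knockout unselected) and TREM2_KO cells of the second gate (76 cells, knockout gated). Each plate was 1 sample, all 4 shared a pooled library, no label names an animal or the deleted stretch of Trem2, and the spread between plates includes genotype and gate. Trem2, the gene labelled as knocked out, was at 1046 to 1125 CPM (counts scaled to library size) in the wild-type unselected classes and 1580 to 1874 CPM in the wild-type gated classes, against 229.95 to 238.9 CPM in the knockout unselected and 368.96 to 425.9 CPM in the knockout gated classes.

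Total RNA per cell varies with cell size and growth and is larger before a cell divides. Microglia, the macrophages that live in brain tissue, still divide in the first postnatal weeks. In young white matter some of them leave the homeostatic state, marked by receptors such as P2ry12 and Tmem119, for a state with high Spp1, Gpnmb, Clec7a, Igf1 and lysosomal genes, known from development and from disease models. Trem2 is a lipid-binding surface receptor of these cells that signals through the adaptor Tyrobp.

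The median RNA content of RNA-poor and RNA-rich cells was 19.7 and 36.1 gene counts per spike-in count in the wild-type unselected plate, a ratio of 1.83. It was 24.4 and 60.8 in the wild-type gated plate (ratio 2.49), 12.7 and 27.5 in the knockout unselected plate (2.17) and 32.4 and 68.3 in the knockout gated plate (2.11). The classes had no gap between them: the highest RNA-poor and the lowest middle cell were at 22.3 and 22.4, 31.54 and 31.55, 15.5 and 15.8, and 42.8 and 43.5 in this order of plates, and the highest middle and the lowest RNA-rich cell at 28.26 and 28.30, 47.3 and 47.8, 20.4 and 20.7, and 61.3 and 61.5. Single cells ranged from 2.80 to 112.6. Because the plates differed in RNA content, the median of RNA-rich knockout unselected cells lay below that of RNA-poor knockout gated cells, and classes were compared within a plate only.

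RNA-rich cells also showed more genes. With every cell thinned to 100000 gene counts, which left out no passing cell, the median number of detected genes in RNA-poor and RNA-rich cells was 1627 and 2399, 2002 and 3134.5, 1447 and 2532.5, and 2780 and 4367 in the 4 plates, and without thinning 2017.5 and 3140.5, 2227.5 and 3547.5, 1549.5 and 2818.5, and 3093 and 5285. Gene counts per cell ranged from 157653 to 1051282, and the summed class profiles from 11070609 to 22679749 gene counts. Spike-ins took 3.40% to 7.95% of the counts of RNA-poor and 1.41% to 3.47% of those of RNA-rich cells. Wells at the plate edge held 9, 14, 15 and 10 RNA-poor and 8, 8, 9 and 8 RNA-rich cells, and without them 19 of 29 G2/M genes were higher in all 4 plates and 20 of 30 homeostatic genes lower as a share of gene counts.

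**Figure D1:**
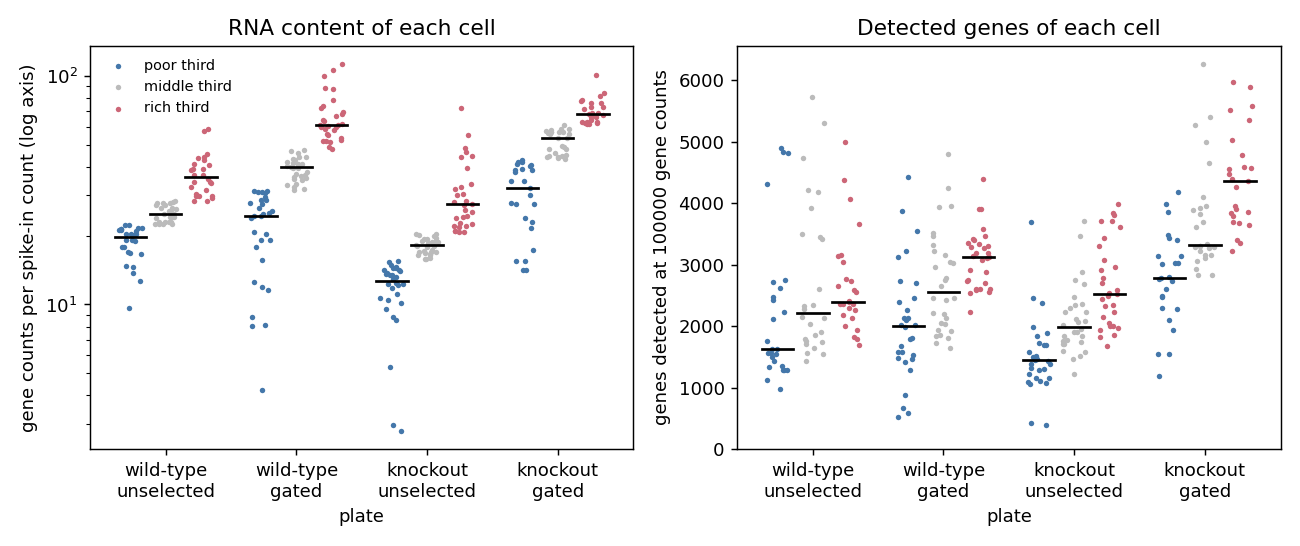
RNA content (left panel, log axis, as gene counts over spike-in counts) and detected genes after thinning to 100000 gene counts (right) of all passing cells, by plate and class; each point is a cell and each line a median. The classes were cut on the left-hand measure, so their order there is given by the choice; on the right the median of the RNA-rich cells was above that of the RNA-poor cells in each of the 4 plates, with overlap between single cells.

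The question was which genes took a different share of the gene counts in RNA-rich cells in all 4 plates. Counts were summed per plate and class and tested with edgeR's quasi-likelihood test with the plate as a block. Of 7396 genes tested, 0 were called higher (0%) and 0 lower (0%) at an adjusted p under 0.05. The smallest adjusted p was 0.411, while at an unadjusted p under 0.05 there were 269 higher and 267 lower genes. DESeq2 on the same sums called 135 genes higher (1.83%) and 78 lower (1.05%) with the same direction in all 4 plates. As a description, 706 genes were higher in all 4 plates (9.55%) and 662 were lower (8.95%), and 167 (2.26%) and 110 (1.49%) were so by at least 1.5-fold in each plate. With classes cut on RNA content adjusted for the number of detected genes, 600 genes were higher and 558 lower in all 4 plates, and 260 of the 706 and 234 of the 662 kept their direction in all 4. The filter at 5 CPM was taken over both classes, and 62 of the 706 higher genes had an RNA-poor mean under it and 7 of the 662 lower ones an RNA-rich mean under it. The lists below are read against these shares, and "higher" or "lower" in all 4 plates stands for these signs and not for a passed edgeR test. A share of gene counts means the share after scaling with trimmed-mean (TMM) factors, unless plain summed counts are named. With plain summed counts as library size 872 genes were higher and 527 lower in all 4 plates. Levels are CPM with trimmed-mean (TMM) factors, differences are log2 of RNA-rich over RNA-poor with the standard error of the edgeR fit over 4 plates, and sets of 4 values give the wild-type plates first (unselected, gated) and then the knockout plates (unselected, gated). CPM of middle cells carry TMM factors fitted with the middle profiles included, so they are not on quite the scale of the class values printed beside them. Whether middle cells lay between the classes was read with all profiles on that joint scale. In these sums fewer expressing cells and less RNA per expressing cell cannot be told apart unless shares of cells are given.

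Genes of G2 and mitosis were higher in RNA-rich cells. Of 29 tested genes of the G2/M list (30 found in the table) 22 were higher in all 4 plates and 0 lower, against 9.55% and 8.95% of all genes, and 18 of the 29 were higher by at least 1.5-fold in each plate. The list's median difference was 2.54, beside 0.10 over all genes tested, and it was 3.75, 2.77, 1.19 and 2.13 in the 4 plates. DESeq2 called 19 of the 29 higher. The leading member by unadjusted p was Mki67, a coat protein of mitotic chromosomes and the usual marker of dividing cells.

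The start regions of 4 of these genes are shown because 2 short motifs known from genes of G2 and mitosis, the CCAAT box and the cell cycle homology element (TTTGAA, or TTTAAA), recur in them. The 4 are the G2/M genes with the largest smallest difference over the plates that have a RefSeq promoter: Prc1, which bundles the microtubules of the late spindle, Hmmr, a spindle protein, Plk1, a kinase that drives mitosis, and Ube2c, a ubiquitin-conjugating enzyme of the anaphase-promoting complex. Each sequence is the 120 bases before the start on the gene's strand (RefSeq, GRCm38.p6), 5′ to 3′, with matches to these motifs on either strand in capitals.
Prc1, chr7:80294331-80294450, plus strand: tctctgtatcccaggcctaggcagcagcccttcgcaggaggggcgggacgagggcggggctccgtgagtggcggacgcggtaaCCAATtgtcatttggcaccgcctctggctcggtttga
Hmmr, chr11:40733438-40733557, minus strand: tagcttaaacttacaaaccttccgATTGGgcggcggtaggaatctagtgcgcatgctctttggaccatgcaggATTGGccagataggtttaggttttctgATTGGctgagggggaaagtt
Plk1, chr7:122159315-122159434, plus strand: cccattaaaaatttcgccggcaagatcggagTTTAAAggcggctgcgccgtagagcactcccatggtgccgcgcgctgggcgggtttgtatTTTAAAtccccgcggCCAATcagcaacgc
Ube2c, chr2:164769809-164769928, plus strand: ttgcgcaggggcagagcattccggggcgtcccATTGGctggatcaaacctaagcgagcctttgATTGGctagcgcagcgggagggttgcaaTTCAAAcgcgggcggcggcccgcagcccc
Prc1, Hmmr and Plk1 each have 1 TTTGAA that lies across or just after the start and is not printed, and Ube2c has its only one, as TTCAAA on this strand, within the printed bases. Over windows of 300 bases (250 before and 50 after the start, both strands, motifs free to overlap), 13 of the 19 higher G2/M genes with a RefSeq promoter held TTTGAA (68.4%), beside 11.5% of the 5456 tested genes with a promoter. CCAAT was in 14 of the 19 (73.7%) beside 39.9%, and TTTAAA in 7 of the 19 (36.8%) beside 8.45%. Over all 25 tested G2/M genes with a promoter TTTGAA and CCAAT were in 19 each (76%), so neither TTTGAA nor CCAAT was more frequent in the members that were higher in all 4 plates. TTTAAA was in 8 of the 25 (32%), beside 36.8% of those members. Among all 538 genes higher in 4 plates with a promoter TTTGAA was in 17.7%, and among the 505 lower ones in 8.71%. These are matches of letters, not sites of a factor.

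Mki67 (chromosome 7, 135689784 to 135716361, minus strand, mm10) was at 117.5, 28.6, 185.6 and 72.0 CPM in RNA-poor and at 300.1, 138.7, 384.0 and 247.3 CPM in RNA-rich cells of the 4 plates. The RNA-rich value was the higher one in each plate, while the knockout unselected RNA-poor cells lay above the wild-type gated RNA-rich cells. The difference was 1.61 ± 0.27 (SE, n = 4 plates; edgeR adjusted p = 0.411, DESeq2 adjusted p = 0.000127). Plk1 was at 6.63, 7.50, 0.915 and 14.1 CPM in RNA-poor and 126.1, 66.6, 124.5 and 50.2 CPM in RNA-rich cells, and here every RNA-rich value lay above every RNA-poor value. Its difference was 3.93 ± 0.98 (edgeR adjusted p = 0.487).

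Birc5, a subunit of the chromosomal passenger complex, was at 5.16, 4.03, 89.4 and 10.9 CPM in RNA-poor and 117.7, 73.3, 178.4 and 91.5 CPM in RNA-rich cells. The knockout unselected plate stood out with a high RNA-poor level. Its partner kinase Aurkb was at 5.25, 2.76, 1.11 and 36.8 against 158.6, 24.5, 82.6 and 76.8 CPM. Aurkb turned to -0.145 in the wild-type gated plate with classes adjusted for detected genes. Cdc20, an activator of the anaphase-promoting complex, was at 8.56, 1.13, 155.6 and 25.3 against 74.3, 76.7, 331.0 and 111.7 CPM. The cyclins Ccna2 and Ccnb1, which activate Cdk1, differed by 2.54 ± 0.80 and 1.53 ± 0.63, with edgeR adjusted p = 0.553 and 0.665. The 7 members without 1 direction had at least 1 plate the other way, in 5 of the 7 the wild-type gated plate: Top2a, the topoisomerase that untangles chromosomes, was at 24.3 in RNA-poor and 15.6 CPM in RNA-rich cells there, against 12.3 and 263.1 CPM in the wild-type unselected plate.

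Few cells carried this signal. Summed over the 29 genes, the median level per cell was 309, 173, 0 and 235 CPM in RNA-poor and 518, 195, 737 and 401 CPM in RNA-rich cells, while single cells reached 22444.9 CPM. Cells above 2000 CPM numbered 2, 2, 6 and 1 in the RNA-poor and 6, 4, 10 and 8 in the RNA-rich class, in sum 11 of 111 (9.91%) and 28 of 111 (25.2%), and 4 and 3 cells of the classes lay between 1500 and 2500 CPM. The 3 highest cells of a class held 45.02% to 77.5% of its G2/M counts. Per plate the exact Clopper-Pearson 95% intervals of these shares overlapped, for example 0.10% to 20.4% against 15.0% to 53.5% in the knockout gated plate. Without the cells that had a count of Mki67 or Top2a after thinning, 0 of the 29 genes had 1 direction in 4 plates and the list's median was 1.20; that removal was itself made on 2 genes of the list.

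**Figure D2:**
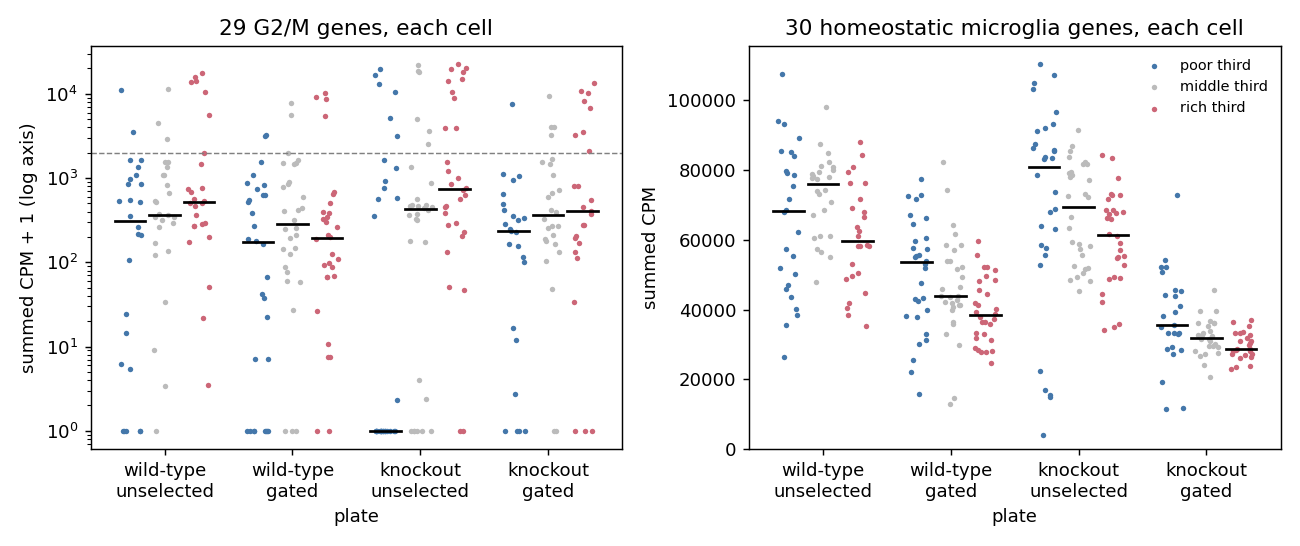
Summed CPM of the 29 tested G2/M genes (left, plus 1, log axis) and of the 30 tested homeostatic genes (right) in each cell by plate and class; lines are medians and the dashed line marks 2000 CPM. On the left 11 RNA-poor and 28 RNA-rich cells lie above the dashed line. On the right the median is lower in RNA-rich cells of each plate as a share of gene counts. Per spike-in count, where the choice of classes raised the median of all genes, the list was higher.

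Genes of other cycle steps differed less evenly. In the S phase list 5 of 22 tested genes were higher in all 4 plates and 0 lower, with a median of 1.48 that was negative in the wild-type gated plate (-0.38) and 2.04, 1.17 and 0.58 in the others. The 5 were Mcm4, Cdt1, Rfc4, Pold1 and Prim1, all of the DNA replication machinery. Of 10 histone genes 4 were higher and 0 lower, among them H2afx, the variant marked at DNA breaks, at 23.3, 27.4, 49.6 and 27.9 CPM in RNA-poor and 177.1, 83.4, 132.4 and 124.8 CPM in RNA-rich cells (2.02 ± 0.40, edgeR adjusted p = 0.447). Of 18 nucleotide synthesis genes 3 were higher (among them Paics and Ctps) and 2 lower (Adsl and Mthfd1). Where the classes were cut on RNA content adjusted for the number of detected genes, 17 of 29 G2/M genes and 2 of 22 S phase genes were higher in all 4 plates, with medians of 1.31 and 0.10.

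Genes of glycolysis were in part higher in RNA-rich cells. Of 16 tested genes 7 were higher in all 4 plates and 0 lower, with a median of 0.96 that was 0.35, 0.99, 0.97 and 0.79 in the 4 plates. The 7 were Gapdh, Tpi1, Pgk1, Pgam1, Eno1, Pkm2 and Ldha, which act in the lower part of the pathway from triose phosphates to lactate. DESeq2 called 4 of the 16 higher. The glucose transporter Slc2a1 and the upper enzymes Hk2, Gpi1, Pfkl and Aldoa had at least 1 plate the other way.

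Pkm2, the table's name for the pyruvate kinase gene of these cells, had the smallest unadjusted p of all genes (chosen after the values were seen, as were the other genes of smallest p named below). It was at 497.9, 949.3, 525.9 and 1865 CPM in RNA-poor and 915.6, 1740, 1089 and 2975 CPM in RNA-rich cells. The middle cells lay between both classes in all 4 plates, at 721.1, 1152, 640.2 and 2554 CPM. The difference was 0.87 ± 0.12 (edgeR adjusted p = 0.411, DESeq2 adjusted p = 2.98e-06), and the highest single cell held 8.48% to 14% of the class's counts.

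Ldha, lactate dehydrogenase A (chromosome 7, 46841475 to 46855627, plus strand), was at 369.2, 571.9, 432.5 and 1165 CPM in RNA-poor and 506.4, 1452, 965.1 and 3002 CPM in RNA-rich cells (1.08 ± 0.18, edgeR adjusted p = 0.411). After thinning it was detected in 17 of 26, 22 of 30, 15 of 30 and 23 of 25 RNA-poor cells and in 21 of 26, 30 of 30, 26 of 30 and 25 of 25 RNA-rich cells, and without thinning in 18, 24, 16 and 23 against 21, 30, 28 and 25. Gapdh was at 186.7, 351.9, 199.2 and 760.1 against 452.2, 734.0, 386.7 and 1043 CPM (0.94 ± 0.18, edgeR adjusted p = 0.447). All 3 genes were at higher levels in the gated than in the unselected plates in both classes, which is a difference between plates and has no replicate. With classes adjusted for detected genes 9 of 16 members were higher in all 4 plates, with a median of 0.62. Pgam1 was mixed there, at -0.22 in the knockout unselected plate. With 1 plate left out, in the order of plates, 12, 7, 9 and 7 of 16 were higher in the 3 others. All genes gave 1192, 1186, 1155 and 1136 of 7396.

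**Figure D3:**
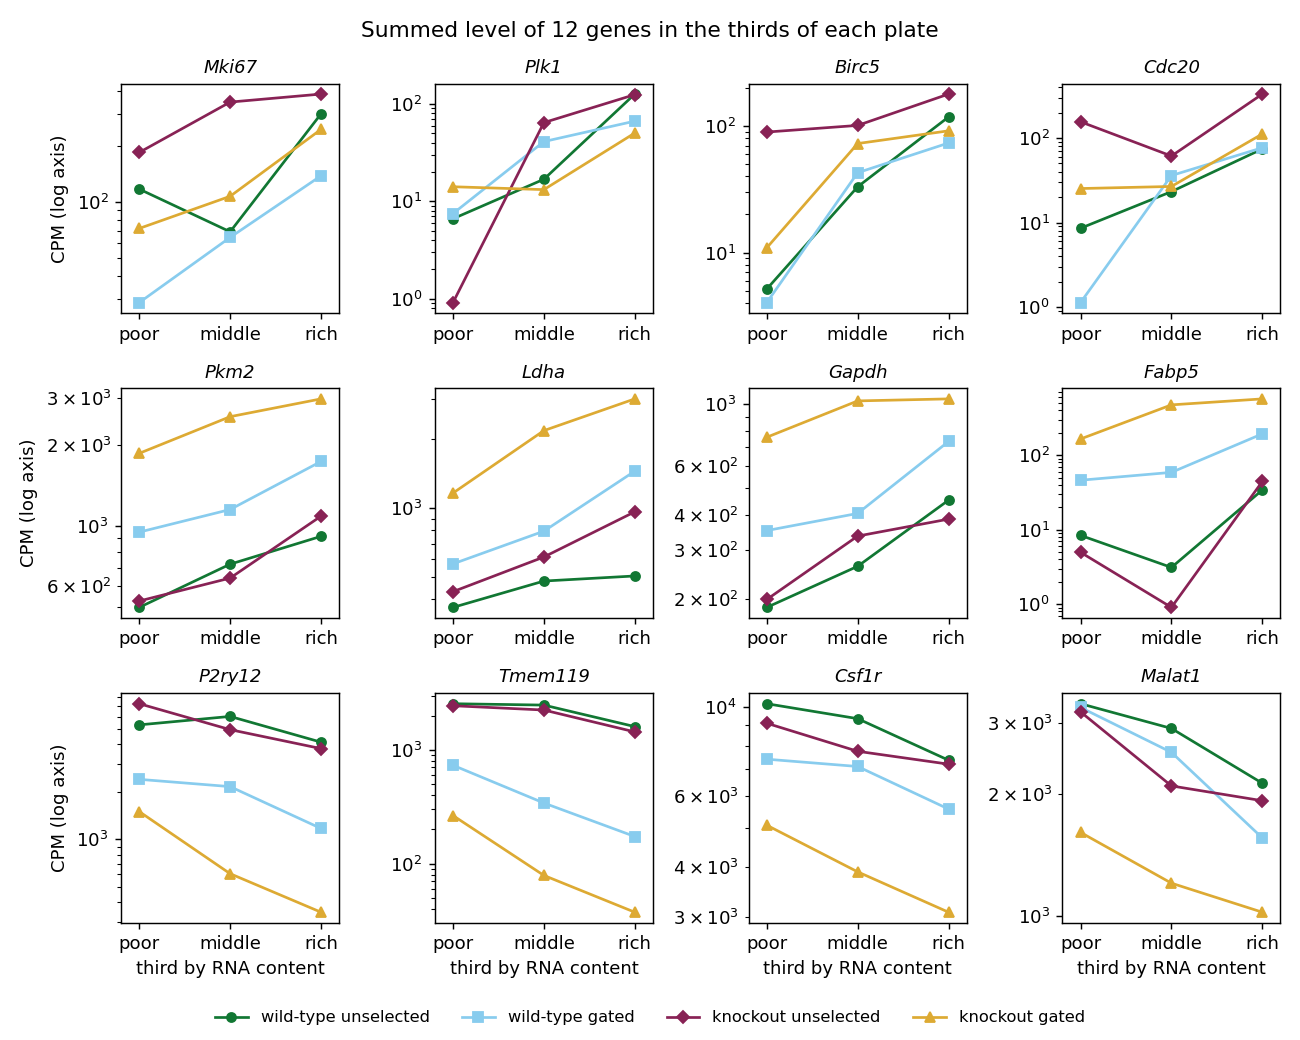
Summed level (CPM, log axis) of 12 genes in RNA-poor, middle and RNA-rich cells, 1 line per plate. Values of middle cells carry TMM factors fitted with the middle profiles included, those of the classes factors fitted without them. Mki67, Plk1, Birc5, Cdc20, Pkm2, Ldha, Gapdh and Fabp5 were higher in RNA-rich than in RNA-poor cells in all 4 plates; P2ry12, Tmem119, Csf1r and Malat1 were lower as a share of gene counts in all 4, and per spike-in count P2ry12, Csf1r and Malat1 turn to higher in the fit over plates.

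Genes known from microglia of disease models and of developing white matter were in part higher in RNA-rich cells. Of 30 tested genes 14 were higher in all 4 plates with TMM factors and 1, B2m of the class I antigen complex, was lower. With plain summed counts as library size 18 were higher and 0 lower. The median with TMM factors was 0.49, with 0.39, 0.57, 0.81 and 0.06 in the plates, and DESeq2 called 7 of the 30 higher. The knockout gated plate showed the smallest median. The second gate selected Gpnmb and Clec7a protein, so the levels of these 2 genes in those plates are not independent of the sort. Without the knockout gated plate 21 of 30 were higher in the 3 others, beside 1136 of all 7396 genes. Without the wild-type unselected, wild-type gated or knockout unselected plate 15, 13 and 15 of 30 were, beside 1192, 1186 and 1155 of all genes.

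Fabp5, a fatty acid carrier, was at 8.38, 46.04, 4.97 and 164.8 CPM in RNA-poor and 34.04, 193.0, 44.3 and 568.5 CPM in RNA-rich cells, each plate at least 1.78 apart on the log2 scale. Its difference was 2.25 ± 0.32 (edgeR adjusted p = 0.411, DESeq2 adjusted p = 2.83e-06). Cd9, a tetraspanin of the cell surface, was at 756.4, 1552, 980.3 and 3174 against 1127, 3033, 1535 and 4880 CPM (0.70 ± 0.11, edgeR adjusted p = 0.411). Both genes kept 1 direction in all 4 plates also with classes adjusted for detected genes, at 2.43 and 0.64.

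Gpnmb, a membrane glycoprotein and one of the sort markers, was at 42.2, 392.2, 7.78 and 3228 CPM in RNA-poor and 432.5, 3300, 178.2 and 4429 CPM in RNA-rich cells. The plates differed widely in the size of this step, from 0.46 to 4.35 on the log2 scale, and 1 cell held up to 94.4% of a class's counts. The fitted difference was 2.91 ± 0.62 (edgeR adjusted p = 0.487). After thinning Gpnmb was detected in 4 of 26, 16 of 30, 3 of 30 and 22 of 25 RNA-poor and in 7 of 26, 25 of 30, 7 of 30 and 25 of 25 RNA-rich cells (without thinning 7, 18, 4 and 22 against 8, 26, 7 and 25). With classes adjusted for detected genes Gpnmb lost its 1 direction, at -0.14 in the knockout gated plate, as did the integrin Itgax, at -0.08. Clec7a, a receptor for fungal glucans and the other sort marker, was at 68.5, 180.9, 2.55 and 657.8 against 82.3, 531.5, 92.7 and 577.2 CPM, with the knockout gated plate the other way (1.42 ± 0.84, edgeR adjusted p = 0.781).

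Spp1, the secreted matrix protein osteopontin, was at 378.4, 4087, 61.9 and 20577 CPM in RNA-poor and 1731, 16738, 3385 and 29155 CPM in RNA-rich cells (2.45 ± 0.77, edgeR adjusted p = 0.553). Igf1, a growth factor for neurons and oligodendrocytes, was at 64, 350.7, 5.49 and 718.3 against 83.5, 875.5, 119.6 and 1137 CPM. Lpl, which releases fatty acids from lipoproteins, was at 409.3, 1114, 246.7 and 870.8 against 458.8, 1529, 760.3 and 2123 CPM. The list of secreted growth factors and matrix shares Spp1, Igf1 and other members with this one. In it 8 of 15 were higher and 1 lower (Sparc) with TMM factors. With plain summed counts as library size 9 were higher and 0 lower. The fitted median with TMM factors was 1.54, above the median of every plate (0.45, 1.32, 1.09 and 0.31). Plate values are log2 of CPM + 1, which understates differences of low genes. Anxa2, a membrane-binding annexin in that list, differed by 2.44 ± 0.67 (edgeR adjusted p = 0.539).

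Of 44 lysosomal and proton pump genes 12 were higher and 5 lower as a share of gene counts in all 4 plates, with a median of 0.20. The higher ones included the proteases Ctsd, Ctsl, Ctsz and Ctsc, the membrane protein Cd68, the cholesterol exporter Npc1 and pump subunits such as Atp6v0c. The lower ones included Ctsf, Gaa, Man2b1 and Lgmn. With plain summed counts as library size 15 of the 44 were higher and 4 lower. With classes adjusted for detected genes 11 of the 44 were higher and 0 lower, and without cycling cells 17 were higher and 1 lower. Npc1 lost its 1 direction with the adjusted classes, at -0.115 in the knockout gated plate. Ctsd was at 8376, 17516, 6732 and 24299 CPM in RNA-poor and 11037, 26116, 13084 and 26029 CPM in RNA-rich cells, a difference of 0.51 ± 0.13 (edgeR adjusted p = 0.499) that was 0.10 in the knockout gated plate.

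Homeostatic microglia genes were lower in RNA-rich cells as a share of gene counts, and higher per spike-in count. Of 30 tested members 23 were lower in all 4 plates and 0 higher with TMM factors, against 8.95% and 9.55% of all genes. With plain summed counts as library size 16 were lower and 0 higher, beside 527 and 872 of all 7396 genes. The median with TMM factors was -0.54 and lay at -0.31, -0.59, -0.30 and -0.73 in the plates. DESeq2 called 9 of the 30 lower. Scaled on spike-in counts, where the choice of classes moved the median of all genes to 1.48, the list's median was 0.84. Relative to all genes it was -0.64. On this scale 22 of 30 members were higher in all 4 plates, beside 4676 of all 7396 genes. With classes adjusted for detected genes 13 were lower and 1 higher, with a median of -0.27.

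Genes at high levels were lower more often in general: of 80 tested genes over 1000 CPM 28 were lower in all 4 plates (35%) and 13 higher (16.3%), against 4.25% and 11.5% of genes under 20 CPM. All 12 homeostatic genes over 1000 CPM were among the 28. Between 100 and 1000 CPM 10 of 17 homeostatic genes were lower, where 12.7% of genes at 100 to 300 CPM and 19.9% at 300 to 1000 CPM were. The part of the level in the result was not tested.

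P2ry12, the ADP receptor that steers microglial processes, was at 5328, 2404, 7258 and 1501 CPM in RNA-poor and 4139, 1173, 3767 and 345.0 CPM in RNA-rich cells (-1.11 ± 0.26, edgeR adjusted p = 0.487). The step was smallest in the wild-type unselected plate and largest in the knockout gated plate. In the latter, 18 of 25 RNA-poor and 21 of 25 RNA-rich cells had 3 or more markers of border-associated macrophages. The part of these cells in the step was not tested. P2ry12 was detected after thinning in 26 of 26, 27 of 30, 26 of 30 and 21 of 25 RNA-poor cells and in all RNA-rich cells, so its share of cells went against its level. Scaled on spike-in counts its fitted difference was 0.27.

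Tmem119, a microglial membrane protein (chromosome 5, 113793729 to 113800516, minus strand), was at 2545, 732.1, 2443 and 264.6 CPM in RNA-poor and 1602, 173.1, 1439 and 37.4 CPM in RNA-rich cells. The difference was -1.57 ± 0.37 (edgeR adjusted p = 0.487, DESeq2 adjusted p = 1.75e-05). Gpr56, an adhesion receptor, was at 517.2, 466.2, 736.0 and 58.9 against 280.0, 83.6, 205.4 and 4.11 CPM (-2.23 ± 0.46, edgeR adjusted p = 0.449). These 2 stayed lower on the spike-in scale in the fit over plates, at -0.20 and -0.85. Both also stayed lower in all 4 plates with classes adjusted for detected genes.

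Csf1r, the receptor that microglia need to survive, was at 10166, 7402, 9091 and 5073 CPM in RNA-poor and 7359, 5565, 7194 and 3084 CPM in RNA-rich cells (-0.48 ± 0.09, edgeR adjusted p = 0.447). The lectin Siglech, at -0.97 ± 0.19, and the receptor P2ry13, at -0.74 ± 0.14, were lower as a share of gene counts by more. The protease inhibitor Cst3 was at 6121, 5320, 5492 and 3987 against 4633, 3685, 3857 and 2574 CPM (-0.52 ± 0.09, edgeR adjusted p = 0.411). The fractalkine receptor Cx3cr1 differed by -0.31 ± 0.08, and turned to 0.01 with classes adjusted for detected genes. Csf1r had the knockout unselected plate the other way with these classes, at 0.06. Csf1r, Siglech, P2ry13, Cst3 and Cx3cr1 turned to higher on the spike-in scale.

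All 10 microglia markers, each also a homeostatic gene, were lower as a share of gene counts in all 4 plates. With plain summed counts as library size 8 of 10 were, and with classes adjusted for detected genes 3 of 10. Per spike-in count 7 of 10 were higher, beside 4676 of all 7396 genes, which follows from the choice of classes. The summed level of the 10 markers was 28334.0 to 53974.3 CPM in RNA-poor and 22840.5 to 44959.5 CPM in RNA-rich cells, and 0 of them was at 0 in either class. In the complement and Fc receptor list 6 of 22 were lower in this share and 0 higher, with a median of -0.21 that was 1.17 per spike-in count. The 6 included the 3 chains of C1q, which starts the complement cascade and tags synapses: C1qa differed by -0.35 ± 0.10, C1qb by -0.20 ± 0.10 and C1qc by -0.30 ± 0.09 (edgeR adjusted p = 0.553, 0.760 and 0.548). With plain summed counts as library size 5 of the 22 were lower. With classes adjusted for detected genes 2 of the 22 were lower, with a median of -0.05, and C1qb and C1qc had the knockout unselected plate the other way, at 0.13 and 0.12. C1qb had that plate the other way also with thinned cells and without cycling cells.

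Malat1 and Rn45s took a lower share of gene counts in RNA-rich cells, and both were higher per spike-in count. Malat1, a long RNA of nuclear speckles (chromosome 19, 5795690 to 5802672, minus strand), was at 3353, 3282, 3201 and 1611 CPM in RNA-poor, 2913, 2542, 2100 and 1207 CPM in middle and 2132, 1561, 1930 and 1023 CPM in RNA-rich cells. It was lower at each step in each plate (-0.78 ± 0.12, edgeR adjusted p = 0.411, DESeq2 adjusted p = 2.98e-06), and its spike-in scaled difference was 0.60. Of the 5 tested nuclear-retained RNAs it was the only 1 with the same direction in all 4 plates. Rn45s, named for the 45S precursor of ribosomal RNA, held 17.3%, 17.2%, 15.0% and 15.7% of the gene counts of RNA-poor and 15.5%, 15.2%, 12.7% and 14.2% of those of RNA-rich cells (-0.26 ± 0.04, edgeR adjusted p = 0.411). Whether its reads came from the precursor was not tested. A cut of the classes without Rn45s, chosen after seeing the data, left 108 RNA-rich and 106 RNA-poor cells in their class.

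Lists of protein and energy supply had medians from -0.09 to 0.56. Of 44 cytosolic ribosomal protein genes 2 were higher and 8 lower with TMM factors, with a median of -0.09 (1.29 per spike-in count). With plain summed counts as library size 4 were higher and 4 lower, with a median of -0.011. Of 30 ribosome biogenesis genes 6 were higher, Npm1, Fbl, Dkc1, Nolc1, Ddx10 and Mrto4, and 3 lower, with a median of 0.56. Of 24 proteasome genes 6 were higher and 0 lower, such as Psmd1 of the regulatory particle at 100, 96.4, 91.4 and 128.2 against 218.0, 135.3, 358.4 and 153.2 CPM. Psmd1 turned to -0.40 in the knockout gated plate with classes adjusted for detected genes. Of 37 genes of the respiratory chain 7 were higher and 0 lower, with a median of 0.32, among them Ndufa9 of complex I at 0.87 ± 0.24 (edgeR adjusted p = 0.548). Higher and lower genes numbered 5 and 0 of 24 translation factors, 4 and 0 of 23 mitochondrial ribosome genes, 3 and 0 of 17 chaperones, 3 and 1 of 23 transcription genes, 2 and 1 of 25 splicing genes, and 1 and 0 of 6 Myc partners. They numbered 1 and 2 of 21 endoplasmic reticulum genes, 3 and 1 of 25 actin and adhesion genes, 3 and 3 of 16 lipid genes, 1 and 1 of 13 sterol genes, 0 and 3 of 14 antigen presentation genes and 1 and 2 of 8 interferon genes. They numbered 0 and 1 of 10 cytokine genes, 0 and 2 of 11 early response genes and 0 and 2 of 11 apoptosis and p53 genes. All these counts are for shares of gene counts after TMM scaling. With plain summed counts some shifted, such as actin and adhesion genes to 7 and 0 and antigen presentation genes to 1 and 2.

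**Figure D4:**
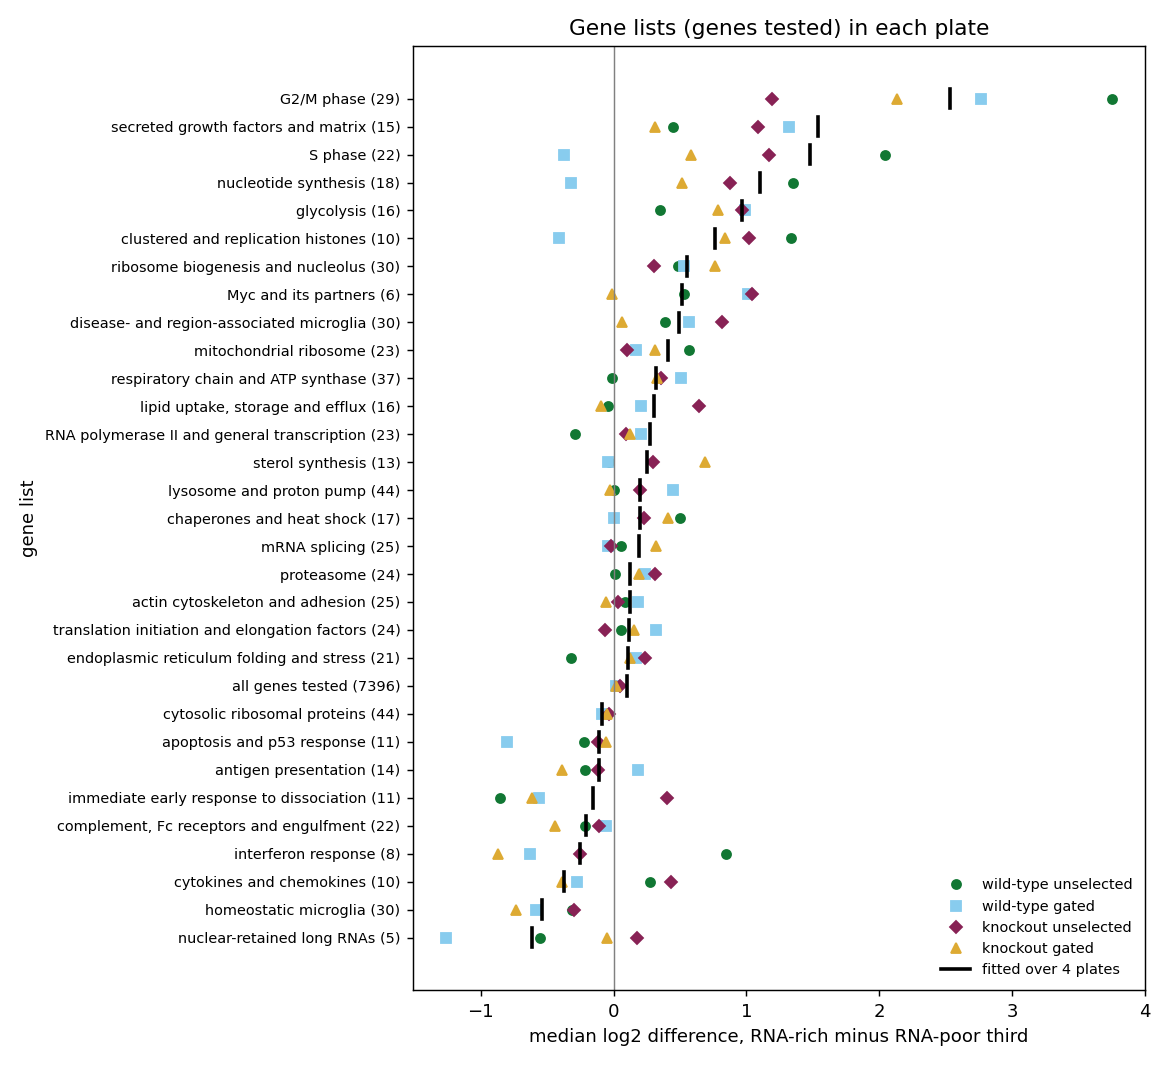
Median log2 difference (RNA-rich minus RNA-poor, share of gene counts after TMM scaling) of 30 gene lists and of all 7396 genes tested. Markers stand for the 4 plates and bars for the fit over plates. G2/M phase stands highest, with plates from 1.19 to 3.75, glycolysis is above 0 and homeostatic microglia below 0 in all 4 plates. On the spike-in scale, where the choice of classes moves the median of all genes to 1.48, every list median is above 0.

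By the rule of the largest smallest difference over plates, the 12 higher genes were Lrrfip2, C230052I12Rik, Stil, Orc6, Slc7a1, Nup133, D230037D09Rik, Spc25, Kif15, Zfp704, Cdca2 and Cdca5. None passed the edgeR test. They were picked by the size of the difference, and 11 of the 12 had an RNA-poor mean under 5 CPM and passed the filter only through the RNA-rich class, so their values are a description. Most were at low levels: Nup133, a nuclear pore and kinetochore protein, was at 0.921, 0.637, 5.56 and 1.64 CPM in RNA-poor and 33.6, 40.0, 42.6 and 39.4 CPM in RNA-rich cells, an even level in the latter. Spc25, a subunit of the kinetochore, was at 3.13, 0.0707, 0.654 and 9.04 against 61.3, 13.5, 74.8 and 61.1 CPM, and Cdca5, which protects sister chromatid cohesion, at 1.01, 1.70, 0.392 and 8.14 against 48.02, 19.9, 66.7 and 39.99 CPM. Cdca5 turned to -0.25 in the knockout gated plate with classes adjusted for detected genes. Kif15 is a spindle motor, Orc6 belongs to the origin recognition complex, Stil acts in centriole duplication and Slc7a1 takes up arginine and lysine. Zfp704, a zinc finger protein, was at 0.460, 0.849, 0.0654 and 5.75 against 6.15, 23.5, 8.38 and 36.3 CPM. Without cycling cells Nup133, Spc25, Cdca5 and Zfp704 each lost the same direction in all 4 plates. Nup133, Spc25 and Cdca5 were then at -3.17, -0.73 and -0.36 in the knockout unselected plate, and Zfp704 at -0.34 in the wild-type unselected plate.

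The 12 lower genes by the same rule, as shares of gene counts, were Sos1, 2810013P06Rik, Mpg, Serpinf1, Lifr, Stambpl1, Gabpa, Rab28, Arsg, Rprd2, Jhdm1d and Slc26a2, of which edgeR called 0. Lifr, a receptor subunit for leukemia inhibitory factor, was at 96.6, 89.3, 123.9 and 61.3 CPM in RNA-poor and 37.5, 31.5, 27.1 and 5.17 CPM in RNA-rich cells (-2.13 ± 0.54, edgeR adjusted p = 0.495). Jhdm1d, a histone demethylase, was at 67.6, 67.5, 87.2 and 90.3 against 8.28, 12.06, 39.4 and 20.02 CPM, and Arsg, a lysosomal sulfatase, at 88.95, 234.5, 89.2 and 80.25 against 23.4, 38.1, 38.8 and 35.7 CPM. These genes were detected in few cells and 1 cell held up to 95.1% of a class's counts of Lifr. Better covered genes of small unadjusted p were the inhibitory lectin Cd33 (-0.80 ± 0.15, edgeR adjusted p = 0.447) and the tetraspanin Tspan14 (-1.21 ± 0.21, edgeR adjusted p = 0.411). Tspan14 stayed lower in all 4 plates with classes adjusted for detected genes, while Cd33 was at 0.445 in the wild-type gated plate. Lifr, Jhdm1d and Arsg stayed below 0 on the spike-in scale in the fit over plates, at -0.76, -0.83 and -0.35, while Cd33 and Tspan14 turned to higher. Only Mpg, Serpinf1 and Sos1, of 7396 genes, were lower per spike-in count in all 4 plates.

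The middle cells, which no class used, lay between both classes in 43.9% of gene and plate pairs of the 706 higher genes and in 42.3% of those of the 662 lower ones, beside 38.04% for all genes tested. For the 22 higher G2/M genes the share was 69.3% and for the 23 lower homeostatic genes 60.9%. A position between the classes in all 4 plates was found for 5 of the 22 and 4 of the 23. The other genes of both groups left that order in at least 1 plate.

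The design also allowed the question whether the class difference depended on gate or genotype. EdgeR called 0 genes for class by gate (0%) and 0 for class by genotype (0%), with 88 higher and 141 lower and with 75 higher and 128 lower genes at an unadjusted p under 0.05, and with 2 residual degrees of freedom. Gpnmb had a gate term of -2.16 ± 0.91 (adjusted p = 0.999) and Clec7a one of -1.94 ± 1.76 (adjusted p = 0.999). Trem2 differed by -0.02 ± 0.14 between the classes (edgeR adjusted p = 0.985) and Tyrobp, at 1049, 1406, 1050 and 2234 CPM in RNA-poor and 944.9, 1650, 1044 and 1719 CPM in RNA-rich cells, by -0.08 ± 0.14 (edgeR adjusted p = 0.932).

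Markers of other cells were low or uneven, apart from those of border-associated macrophages. In the knockout gated plate 18 of 25 RNA-poor and 21 of 25 RNA-rich cells had 3 or more of the latter. All 10 pericyte and fibroblast markers were at 0 in both classes, and the monocyte markers Ly6c2 and Ccr2 and the lymphocyte markers Cd3e and Ms4a1 were among those at 0. The 10 monocyte markers summed to 0.00 to 6.06 CPM in RNA-poor and 0.07 to 25.04 CPM in RNA-rich cells, and the 11 neuronal markers to 0.00 to 106.4 and 0.00 to 6.08 CPM. Neutrophil markers summed to 250.7 to 301.6 and 157.1 to 334.1 CPM with 7 of 10 at 0 in each class, lymphocyte markers to 55.9 to 242.0 and 59.03 to 107.6 CPM, oligodendrocyte markers to 8.85 to 161.3 and 109.5 to 125.3 CPM, astrocyte markers to 10.2 to 77.8 and 16.9 to 109.6 CPM, endothelial markers to 41.9 to 154.4 and 95.0 to 232.1 CPM and red blood cell markers to 0.00 to 805.4 and 0.93 to 327.7 CPM. The 12 border-associated macrophage markers summed to 544.6 to 3191.4 CPM in RNA-poor and 819.4 to 2210.7 CPM in RNA-rich cells, higher in RNA-rich cells in 2 of 4 plates. Cells with 3 or more of them numbered 3, 8, 0 and 18 in the RNA-poor and 3, 12, 9 and 21 in the RNA-rich class; without these cells, which left 7 RNA-poor and 4 RNA-rich knockout gated cells, 26 of 29 G2/M genes and 6 of 16 glycolysis genes were higher, 8 of 30 disease-associated genes were higher and 20 of 30 homeostatic genes were lower as a share of gene counts.

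Transcript length and base composition differed somewhat between the directions. The longest transcript of the genes higher in all 4 plates had a median length of 2932.5 bases and 48.6% GC, that of the lower genes 3674 bases and 50.0% GC, and that of all genes tested 3385 bases and 49.4% GC. A transcript was found for 92.1%, 91.7% and 90.9% of these genes. The part of length in the results was not tested.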

How the data were processed

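Single microglia in 4 plates were profiled with Smart-seq2 and spike-in RNA, and per the labels' protocols the amplified cDNA was diluted to a common concentration before library preparation. The authors deposited 1 table of raw counts for 23337 genes and 92 spike-ins in all cells sequenced, in which 0 columns remained unmatched to a sample. Reads had gone through STAR 2.5.3a, HTSeq, Picard and Trim Galore 0.4.3 (mm10), per the submitters' processing notes. No source used here gives the annotation or strand setting, so overlapping and antisense genes, pseudogenes and close paralogs such as histones are uncertain. Groups and quality calls came from the labels. The 35 cells that failed were left out, and each well was taken as 1 cell with no search for doublets.

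Counts of the top and bottom tertile of cells by RNA content were summed per plate and tested with edgeR 4.0.16 (TMM factors, quasi-likelihood, plate as a block, Benjamini-Hochberg adjustment). The fit was also run on simulated data, with results not reported here. Its common biological coefficient of variation was 0.7346 with 3 residual degrees of freedom, so 0 called genes do not show that no gene differed. Genes needed a mean of 5 CPM over the 8 profiles and a count in 10% of cells thinned to 100000 gene counts. The CPM mean was taken over the class sums, so a gene low in 1 class could pass through the other. Per-plate differences are log2 of CPM + 1, which understate differences of low genes. A call needed an adjusted p under 0.05 and 1 direction in all 4 plates. Plates pair the classes because both come from the same plate. P-values measure the spread between plates, and the printed intervals are for numbers of cells and cover the counting error of cells only. Amplified reads are not independent molecules.

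Named genes are the 12 per direction with the largest smallest difference over plates, up to 4 per list with the largest fitted difference, Trem2, Tyrobp, Gpnmb and Clec7a, and list members or genes of the smallest p named as such. The members, the 30 pathway and 11 cell type lists and the rules were chosen with earlier results of these data known. Of 812 symbols 810 were matched, 4 by an older symbol. Some genes are not reported here. Alternatives were other scalings, DESeq2 1.42.0, filters, cuts, thinned cells and left-out plates or cells. Coordinates come from GENCODE M21 and promoters from RefSeq, both of mm10 (GRCm38).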

Additional observations from a re-analysis of the deposited data

Results flagged for a closer look

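Trem2 went opposite ways in the genotypes: RNA-rich minus RNA-poor was -0.10 and -0.25 (log2) in the wild-type unselected and gated plates and 0.055 and 0.21 in the knockout plates, a mean difference of 0.31 between genotypes. The edgeR term for class by genotype was 0.31 ± 0.27 (unadjusted p = 0.299, adjusted p = 1.0). The split by genotype was not kept with classes adjusted for detected genes or with thinned cells, where Trem2 in the knockout unselected plate was at -0.18 and -0.04. The median of 10 cytokine and chemokine genes was 0.28 and 0.44 in the unselected and -0.27 and -0.39 in the gated plates, a mean difference of -0.69 between gates. The median of 13 sterol synthesis genes was -0.04 and -0.04 in the wild-type and 0.30 and 0.69 in the knockout plates, a mean difference of 0.53. These differences of list medians were not tested, and the smallest adjusted p of any single member was 0.999 for the gate and 1.0 for the genotype.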

How the results depend on the processing

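The edgeR count stayed at 0 called genes in both directions under the alternatives run, except with spike-in scaling (2260 higher), which follows from the choice of classes, and DESeq2 called 135 higher and 78 lower. Without the plate as a replicate block 0 genes were called. The 706 higher and 662 lower genes could not change there, because the signs are taken per plate and do not use the block. Spike-in scaling gave 4676 higher and 3 lower genes in all plates (2829 and 0 by 1.5-fold) and 0 homeostatic members lower, 15 glycolysis and 28 disease-associated members higher. A filter at 20 CPM and 25% of cells gave 402 and 416 (50 and 47 by 1.5-fold) and 5 higher G2/M members. Fewer genes were tested there, and the TMM factors were fitted anew. Of the main higher and lower genes 362 and 456 were still tested, of which 362 and 416 kept their direction. A filter at 1 CPM gave 305 higher by 1.5-fold. By 2-fold in each plate the counts were 79 and 21. Plain summed counts as library size gave 872 higher and 527 lower genes in all plates and 16 lower homeostatic members. A cut at the median gave 79 and 56 by 1.5-fold and 13 lower homeostatic members, and classes adjusted for detected genes 80 higher by 1.5-fold and 13 lower homeostatic members. Without cycling cells 0 G2/M members were higher, classes of the outer quartiles gave 11 glycolysis members, and without cells with border macrophage markers 8 disease-associated members were higher. With 1 plate left out, 3 signs need to match in place of 4, and counts were 1136 to 1192 higher and 1081 to 1134 lower, 329 to 414 and 243 to 285 by 1.5-fold, and 7 to 12 glycolysis members. Reversals on the spike-in scale were Trem2 1.35, Tyrobp 1.30, P2ry12 0.27, Siglech 0.41, P2ry13 0.63, Csf1r 0.89, Cx3cr1 1.07, Cst3 0.86, Sall1 0.70, C1qa 1.02, C1qb 1.18, C1qc 1.08, Malat1 0.60, Rn45s 1.12, Cd33 0.58 and Tspan14 0.16, against an all-gene median of 1.48. Trem2, at -0.02 as reported, turned to 0.006 with the 20 CPM filter, 0.017 with the cut at the median, 0.10 with outer quartiles, 0.057 with summed counts, 0.013 with adjusted classes, 0.007 without Rn45s in the cut, 0.003 without cycling cells, and 0.031 and 0.005 without the wild-type gated or unselected plate, with a range of -0.116 to 0.031 over left-out plates. Tyrobp, at -0.08 as reported, turned to 0.037 with the cut at the median, 0.003 with summed counts, 0.10 with adjusted classes, 0.097 without cycling cells and 0.007 without the knockout gated plate, with a range of -0.201 to 0.007. With adjusted classes Cx3cr1 turned to 0.006 and Arsg to 0.063, and without cycling cells Ccnb1 turned to -0.31. For reversals other than those of spike-in scaling the cause was not tested. Depth limits low genes, whose class sums rest on few cells.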
